A study of Mus musculus with 8 samples.

Results

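The genes examined are p53 and 30 genes that p53 is known to drive or that hold p53 in check, a list of 31 in all. The list goes by gene name and sets no limit on an expression value, but it was drawn up with earlier results of these data known. Of the 31, 29 had a probe set whose platform annotation names them alone, of 18193 genes so measured. Trp53, which encodes p53 itself, and Bax were not analysed here. Where several probe sets name 1 gene, the one with the highest mean over the 8 arrays stands for it.

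The cells are mouse embryonic fibroblasts, connective tissue cells that grow out of a minced embryo, with 4 samples that carry both copies of Cebpg (WT) and 4 that lack Cebpg (Cebpg-/-). Cebpg encodes C/EBPγ, a leucine zipper transcription factor that pairs with other such factors. Both groups came from E13.5 embryos of the strain C57BL/6, were cultured with 10% fetal bovine serum up to passage 3, plated at equal density and collected 48 hours later with no further treatment named in the labels. The samples are labelled biological replicates and nothing says whether each is a separate embryo, so a p-value here speaks of the spread among these samples, which may be partly technical. RNA of each sample was hybridised to 1 Affymetrix array, and the deposited RMA values are on a log2 scale, on which 1 unit is a doubling. Values of different genes are not compared here, since each probe set has its own brightness.

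p53 is a transcription factor that cells keep scarce: Mdm2 marks it for destruction and Mdm4 blocks its activity. DNA damage, oncogene activity and the strain of culture release it, and it then raises genes that stop the cell cycle, repair DNA, dampen growth or kill the cell, together with genes that shut p53 off again. In cultured fibroblasts this response is known for the arrest that sets in as passages go on.

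The 3 Cebpg probe sets were read first as a check of the genotype. The second brightest fell to 58.1% of WT, from 6.32 ± 0.07 to 5.53 ± 0.12 (SD, n = 4; limma, adjusted p = 0.000593 over all probe sets), with no overlap between the groups. Neither the brightest (-0.17; limma, adjusted p = 0.275) nor the dimmest (0.26; adjusted p = 0.0942) passed, and on the dimmest all 4 Cebpg-/- values lay above all WT values, opposite to the probe set that fell. No source used here says which probe set covers the deleted part. Array medians lay between 2.70 and 2.76, and the number of arrays limits the precision.

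The comparison of Cebpg-/- with WT asks which genes of the p53 response are expressed differently without Cebpg. Of the 29 measured genes 13 rose, none fell and 16 did not pass (limma with Benjamini-Hochberg adjustment over all genes, threshold 0.05; 4 genes with changes below 0 had an unadjusted p under 0.05). The genes that rose are 44.8% of the 29, where 8.62% of all genes rose and 3.99% fell. With dim probe sets left out (those not above the median probe set of 2.73 on at least 4 arrays) the same 13 rose. Of the genes kept in that fit 14.5% rose. Perp (a membrane protein of cell death and cell adhesion), Mdm2, Trp53inp1 (a partner of p53 in death and autophagy), Tnfrsf10b (a death receptor) and Polk (a DNA polymerase that copies past damage) had the largest rises. The median change over the 29 genes was 0.31 on the log2 scale, beside -0.00092 over all genes, and 23 of the 29 changes were above 0. Of all genes called, the share that rose was 68.4%, against 56.7% once arrays were quantile-normalized and 78.9% once array medians were subtracted. Of the 29 genes 13 had their 4 Cebpg-/- values above all 4 WT values, an order that 12.8% of all genes showed. They are the 13 that rose. A call from the same values favours this order, so it is no separate result.

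**Figure D1:**
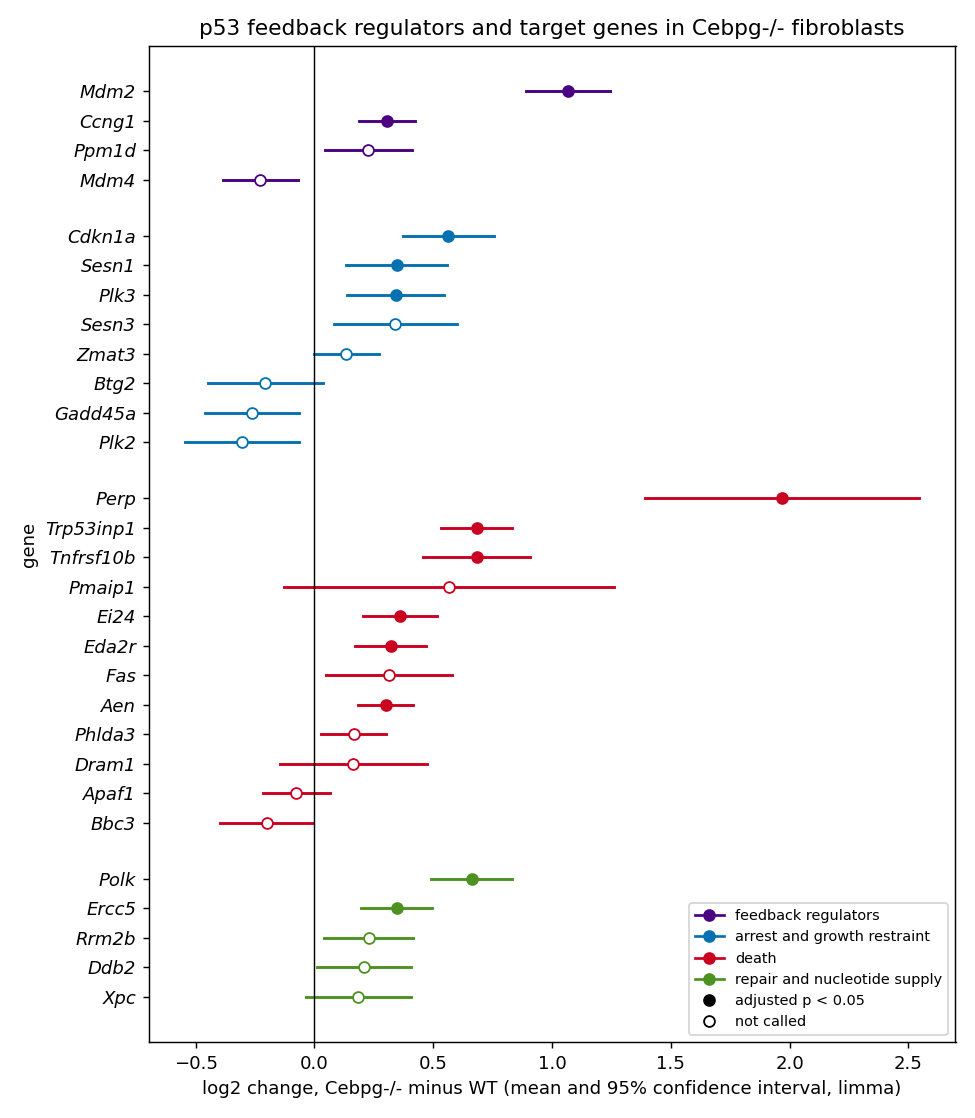
Log2 change (Cebpg-/- minus WT, 4 arrays each) of the 29 measured genes with its 95% confidence interval from limma, grouped by role and ordered by change. Filled points are the 13 genes that passed at an adjusted p of 0.05, from Aen at 0.30 to Perp at 1.97, and the 6 open points left of 0 include Mdm4, Gadd45a and Plk2.

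The genes were divided by role into 4 measured feedback regulators, 8 genes of arrest and growth restraint, 12 of death and 5 of repair and nucleotide supply. The genes that rose were 2 of 4 feedback regulators, 3 of 8 arrest genes, 6 of 12 death genes and 2 of 5 repair genes. The median change was 0.27, 0.24, 0.32 and 0.23 in that order. The mean shift from the WT level over the 12 death genes lay between 0.37 and 0.49 on the Cebpg-/- arrays and between -0.05 and 0.06 on the WT arrays. For the 5 repair genes these ranges were 0.29 to 0.35 and -0.10 to 0.09, and for the feedback regulators 0.29 to 0.42 and -0.04 to 0.06. The arrest genes alone among the 4 roles overlapped, at -0.01 to 0.23 on the Cebpg-/- arrays and -0.14 to 0.13 on the WT arrays, and within them Cdkn1a, Plk3 and Sesn1 rose while Btg2, Gadd45a and Plk2 had changes below 0. The mean of the feedback regulators leans on Mdm2, with a change of 1.07 beside 0.31 for Ccng1, 0.23 for Ppm1d and -0.23 for Mdm4. That of the death genes leans on Perp, with a change of 1.97 beside the median of 0.32. Whether the roles differ from each other was not tested.

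**Figure D2:**
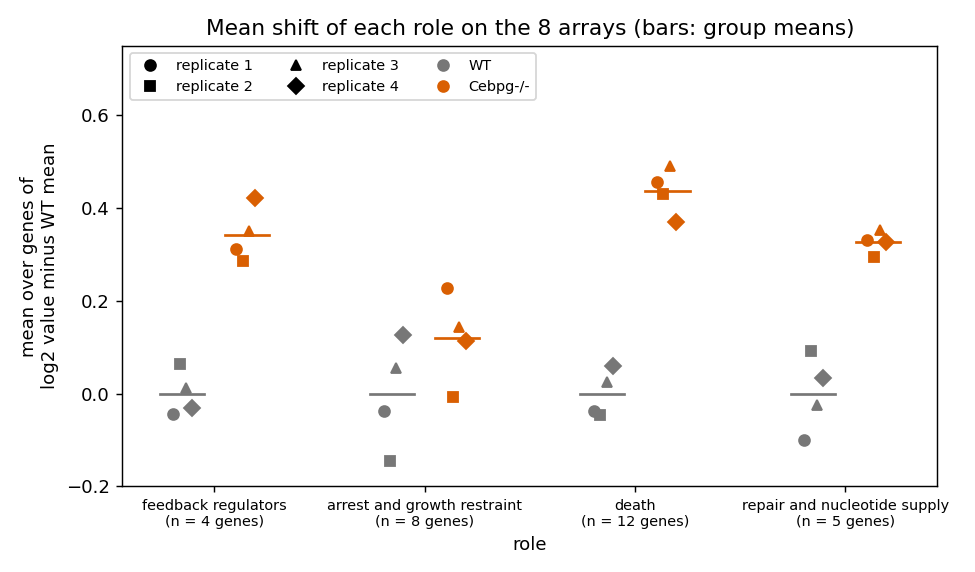
Mean over the genes of each role of the log2 value minus that gene's WT mean, for each of the 8 arrays (grey WT, orange Cebpg-/-, marker shape by replicate number, bars for group means). The groups are apart for feedback, death and repair genes, and overlap for the 8 arrest genes, where Cebpg-/- replicate 2 lies at -0.01.

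The stretches before the start sites of 9 measured genes are shown because p53 acts by binding DNA there or near there. These are the measured genes with a window that holds the decamer described next, whether they rose or not. RefSeq gene-start windows (build GRCm38.p6, 250 bases before to 50 after the start) were given for 23 of the 31 genes. They were searched for the p53 decamer consensus with no mismatch allowed. A full p53 site holds a pair of such decamers, and the consensus reads the same on both strands. It was found in 12 of 30 windows (40%) of 11 of the 23 genes, among them the unmeasured Trp53 and Bax, and in 8.36% of all 32851 windows. Of the 10 genes that rose and have a window 7 hold a decamer, and of the 11 that did not pass 2 do. The shares are 8.59% of 14452 measured genes with a window and 9.25% of those that rose. A gene counts if any of its windows holds a decamer, and whether the genes that rose differ from the others in this was not tested. The genes were listed as p53 targets, so a p53 motif near them is part of how they came to be known and no finding of this comparison. The capitals mark the decamers, and each stretch ends at or before the start site of its window. The Aen stretch runs across the other of its 2 annotated starts.
Mdm2 (chr10:117710900-117710979, minus strand): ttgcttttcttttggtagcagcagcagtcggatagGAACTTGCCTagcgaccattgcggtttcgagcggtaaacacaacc
Ccng1 (chr11:40755427-40755506, minus strand): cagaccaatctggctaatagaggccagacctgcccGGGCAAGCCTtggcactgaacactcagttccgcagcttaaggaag
Cdkn1a (chr17:29090871-29090972, plus strand): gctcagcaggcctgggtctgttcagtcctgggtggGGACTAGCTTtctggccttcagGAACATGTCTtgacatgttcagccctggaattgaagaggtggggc
Sesn1 (chr10:41887231-41887310, plus strand): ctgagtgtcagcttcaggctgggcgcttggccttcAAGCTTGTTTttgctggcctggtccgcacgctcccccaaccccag
Aen (chr7:78895902-78895981, plus strand): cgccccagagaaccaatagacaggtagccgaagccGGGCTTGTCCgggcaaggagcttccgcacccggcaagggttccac
Ei24 (chr9:36797335-36797379, minus strand): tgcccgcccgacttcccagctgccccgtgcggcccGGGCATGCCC
Polk (chr13:96519374-96519437, minus strand): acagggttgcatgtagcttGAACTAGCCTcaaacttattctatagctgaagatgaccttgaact
Ppm1d (chr11:85311087-85311166, plus strand): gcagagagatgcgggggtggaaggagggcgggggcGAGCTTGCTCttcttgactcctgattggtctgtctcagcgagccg
Gadd45a (chr6:67037408-67037482, minus strand): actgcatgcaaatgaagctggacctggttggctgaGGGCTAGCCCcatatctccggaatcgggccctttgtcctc

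The first 7 of these genes rose and Ppm1d and Gadd45a did not pass. Cdkn1a is the 1 gene of the list with a pair of exact matches, 12 bases apart, before 1 of its 2 annotated starts. Of all windows 0.0731% hold such a pair no more than 13 bases apart. Decamers that depart from the consensus were not marked, so a full site with a mismatch is missed, also right beside a marked decamer. Sesn1, Aen and Polk also have 2 windows each. The Aen decamer lies in both, since its windows overlap, while for Sesn1 and Polk the window of the other annotated start holds none. Plk3, Eda2r and Ercc5 rose with no decamer in the window, which says only that these letters are not there. Perp, Trp53inp1 and Tnfrsf10b, which also rose, and Zmat3, Pmaip1, Rrm2b, Ddb2 and Xpc, which did not pass, had no entry.

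Of the regulators that turn p53 off, Mdm2 and Ccng1 rose, while Mdm4 had a change below 0. Mdm2, the ubiquitin ligase of p53 and one of its most direct targets, read 7.95, 8.10, 8.09 and 8.04 on WT replicates 1 to 4 and 9.20, 8.89, 9.13 and 9.22 on Cebpg-/- replicates 1 to 4. The Cebpg-/- values lie far above the WT values, with the lowest on replicate 2. The rise was 2.09-fold, or 1.07 ± 0.08 on the log2 scale (SE; limma, adjusted p = 0.000115). A second probe set of Mdm2 rose by 1.26 (limma, adjusted p = 0.000546 over all probe sets), and a further one, dim at 1.78 in WT and 1.67 in Cebpg-/-, did not pass (-0.11).

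Ccng1 encodes cyclin G1, which brings a phosphatase to Mdm2 and so favours the loss of p53. It read 10.74, 10.72, 10.71 and 10.80 on the WT arrays and 11.07, 11.00, 11.10 and 11.03 on the Cebpg-/- arrays. The groups are apart by more than either spreads, a rise of 0.31 ± 0.05 (SE; limma, adjusted p = 0.00616). Its other 2 probe sets rose by 0.53 and 0.51. Ppm1d encodes the phosphatase Wip1, which removes the damage marks from p53 and its kinases. On the probe set used it read 5.15, 5.43, 5.39 and 5.18 in WT and 5.40, 5.58, 5.46 and 5.61 in Cebpg-/-, groups that overlap, and did not pass (0.23 ± 0.08 SE; limma, adjusted p = 0.102). A second probe set of Ppm1d rose by 0.48 (limma, adjusted p = 0.00509 over all probe sets), and with the mean of both as its value the gene passed (0.35, adjusted p = 0.00537).

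Mdm4, a relative of Mdm2 that binds and silences p53, read 5.90, 5.92, 5.77 and 5.77 in WT and 5.48, 5.59, 5.64 and 5.74 in Cebpg-/-. All 4 Cebpg-/- values lie below all WT values, which 6.74% of all genes show, and the gap is small. The change of -0.23 ± 0.07 (SE) did not pass (limma, adjusted p = 0.0624). It did after quantile normalization (-0.30, adjusted p = 0.0371) and with dim probe sets left out (-0.23, adjusted p = 0.0479), and the second probe set read -0.27 (adjusted p = 0.0863 over all probe sets).

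Of the 8 genes of arrest and growth restraint 3 rose. Cdkn1a encodes p21, the inhibitor of cyclin-dependent kinases through which p53 stops the cycle. It read 9.86, 9.73, 9.96 and 10.09 on the WT arrays and 10.58, 10.35, 10.41 and 10.54 on the Cebpg-/- arrays, with no overlap. The rise of 0.56 ± 0.09 (SE) was 1.48-fold (limma, adjusted p = 0.00364), and the other Cdkn1a probe set rose by 0.68 (limma, adjusted p = 0.00115 over all probe sets).

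Plk3, a stress-activated polo-like kinase, read 5.14, 5.00, 5.11 and 5.25 in WT and 5.64, 5.26, 5.40 and 5.57 in Cebpg-/-, a rise of 0.34 ± 0.09 (SE; limma, adjusted p = 0.0367). The lowest Cebpg-/- value, on replicate 2, clears the highest WT value by little. Sesn1, a sestrin that restrains the growth kinase mTORC1, read 4.78, 5.02, 4.98 and 5.07 in WT and 5.52, 5.15, 5.36 and 5.20 in Cebpg-/-, a rise of 0.35 ± 0.10 (SE; limma, adjusted p = 0.0406). Both calls are close to the threshold, and each was lost without WT replicate 1, 2 or 3 or Cebpg-/- replicate 1, 3 or 4 (limma, adjusted p from 0.0682 to 0.0989 for Plk3 and 0.0588 to 0.112 for Sesn1) and after quantile normalization (0.0739 and 0.0737). When its 4 probe sets were averaged Sesn1 did not pass either (0.23, limma adjusted p = 0.134).

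The sestrin Sesn3 read 4.41, 4.44, 4.63 and 4.67 in WT and 5.09, 4.63, 5.07 and 4.73 in Cebpg-/-, where replicate 2 lies within the WT range, and did not pass (0.34 ± 0.12 SE; limma, adjusted p = 0.0819). Its second probe set did (0.47, limma adjusted p = 0.0311 over all probe sets), as did the mean of both (0.40, adjusted p = 0.0363) and the first without Cebpg-/- replicate 2 (0.42, adjusted p = 0.0327). Zmat3, an RNA-binding protein of the p53 response, had a change of 0.13 ± 0.06 (SE; limma, adjusted p = 0.187).

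The other 3 arrest genes had changes below 0 and none passed. Plk2, a polo-like kinase of early cycle phases, read 9.50, 9.18, 9.56 and 9.69 in WT and 9.30, 9.06, 9.10 and 9.26 in Cebpg-/-, and WT replicate 2 alone of the WT arrays lies among the Cebpg-/- values. Its change was -0.30 ± 0.11 (SE; limma, adjusted p = 0.0931), and it passed without that array (-0.41, adjusted p = 0.0173). Gadd45a, a growth-arrest protein induced by DNA damage, read 6.01, 5.86, 6.09 and 6.08 in WT and 5.92, 5.53, 5.76 and 5.78 in Cebpg-/-. The change of -0.26 ± 0.09 (SE) did not pass (limma, adjusted p = 0.0814), and did after quantile normalization (-0.32, adjusted p = 0.0367). Btg2, an antiproliferative protein that speeds mRNA decay, had a change of -0.21 ± 0.11 (SE; limma, adjusted p = 0.243) with overlapping groups. The second probe set of Btg2 lay above 0 (0.08; limma, adjusted p = 0.531 over all probe sets), and averaging both gave -0.06. Cdkn1a and Gadd45a, which are often read together as marks of p53 activity, thus lay on opposite sides of 0.

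Of the 12 measured death genes 6 rose, among them the largest rise of the 29 genes. Perp read 3.66, 3.69, 3.06 and 3.20 on the WT arrays and 5.43, 5.08, 6.14 and 4.82 on the Cebpg-/- arrays. The groups are more than 1 log2 unit apart, and the Cebpg-/- arrays also spread more, with an SD of 0.57 beside 0.32. The rise was 1.97 ± 0.26 (SE), or 3.91-fold (limma, adjusted p = 0.00185). Perp is also a desmosome protein of epithelia. The mean of 6 epithelial markers lay between 2.97 and 3.37 on the WT arrays and 3.01 and 3.29 on the Cebpg-/- arrays, 1 of the 6 passed (Epcam, -0.34), and Cdh1 read 1.38 and 1.43 on average in the 2 groups.

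Trp53inp1 read 7.10, 7.22, 7.27 and 7.13 in WT and 7.88, 7.73, 7.92 and 7.94 in Cebpg-/-, a rise of 0.68 ± 0.07 (SE; limma, adjusted p = 0.000424). The arrays of each genotype lie close together. Its second probe set is dim and had a change of 0.03, and averaging the 2 gave 0.36. Tnfrsf10b, the receptor for the death ligand TRAIL, read 3.05, 3.14, 3.21 and 3.44 in WT and 4.10, 3.93, 3.77 and 3.77 in Cebpg-/-. This rise of 0.68 ± 0.10 (SE; limma, adjusted p = 0.00338) was seen in a second probe set too (0.76, limma adjusted p = 0.00283 over all probe sets).

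The other 3 death genes that rose did so by little and evenly. Ei24, a protein of the endoplasmic reticulum, read 8.39, 8.27, 8.54 and 8.28 in WT and 8.74, 8.74, 8.76 and 8.67 in Cebpg-/- (0.36 ± 0.07 SE; limma, adjusted p = 0.0108). Eda2r, a receptor of the TNF receptor family for ectodysplasin A2, read 6.53, 6.65, 6.82 and 6.70 in WT and 7.00, 7.01, 6.98 and 6.99 in Cebpg-/- (0.32 ± 0.07 SE; limma, adjusted p = 0.0136). Aen, a nuclease of apoptosis, read 8.29, 8.23, 8.29 and 8.21 in WT and 8.59, 8.56, 8.56 and 8.51 in Cebpg-/- (0.30 ± 0.05 SE; limma, adjusted p = 0.00649). In all 3 the Cebpg-/- values lie within 0.1 of each other, and none overlaps WT.

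The 6 death genes that did not pass include the BH3-only killers Pmaip1 and Bbc3, whose changes lay on opposite sides of 0. Pmaip1 (Noxa) read 7.54, 6.85, 7.58 and 8.45 in WT and 8.54, 7.57, 8.50 and 8.09 in Cebpg-/-. Both groups spread widely, and the change of 0.57 ± 0.31 (SE) is as large as that of Cdkn1a with an adjusted p of 0.263 (limma). Bbc3 (Puma) read 5.08, 4.81, 4.99 and 5.22 in WT and 4.79, 4.89, 4.88 and 4.73 in Cebpg-/-, a change of -0.20 ± 0.09 (SE; limma, adjusted p = 0.163) that passed without WT replicate 2 (-0.27, adjusted p = 0.0488). Fas, the receptor of the Fas death ligand, had a change of 0.31 ± 0.12 (SE; limma, adjusted p = 0.114), Phlda3 (an inhibitor of the survival kinase Akt) 0.17 ± 0.06 (0.108) and Dram1 (a lysosomal protein of autophagy) 0.16 ± 0.14 (0.480). Apaf1, the core of the apoptosome, had -0.08 ± 0.06 (limma, adjusted p = 0.466), with a 95% confidence interval of -0.22 to 0.06.

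All 5 repair genes had changes above 0 and 2 rose. Polk read 6.65, 6.95, 6.82 and 6.70 on the WT arrays and 7.53, 7.36, 7.41 and 7.46 on the Cebpg-/- arrays, with no overlap. The rise was 0.66 ± 0.08 (SE), or 1.58-fold (limma, adjusted p = 0.000896), and the second probe set of Polk rose by 0.63 (limma, adjusted p = 0.00341 over all probe sets). Ercc5 encodes XPG, a nuclease of nucleotide excision repair, and read 6.12, 6.20, 6.24 and 6.04 in WT and 6.40, 6.60, 6.47 and 6.53 in Cebpg-/- (0.35 ± 0.07 SE; limma, adjusted p = 0.0102). Its second probe set is dim, and averaging the 2 gave a change of 0.21, which passed.

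The damage sensors of the same repair pathway did not pass. Ddb2, which finds ultraviolet lesions, had a change of 0.21 ± 0.09 (SE; limma, adjusted p = 0.154) and Xpc, which marks them for repair, 0.18 ± 0.10 (0.250). Ddb2 is dim, at 2.80 in WT and 3.01 in Cebpg-/- on average, close to the median probe set of 2.73. Rrm2b, the p53-driven subunit of ribonucleotide reductase that supplies nucleotides for repair, read 5.60, 5.60, 5.56 and 5.78 in WT and 6.02, 5.66, 5.91 and 5.86 in Cebpg-/-, where replicate 2 again lies within the WT range (0.23 ± 0.08 SE; limma, adjusted p = 0.104). It passed without Cebpg-/- replicate 2 (0.30, adjusted p = 0.0328).

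**Figure D3:**
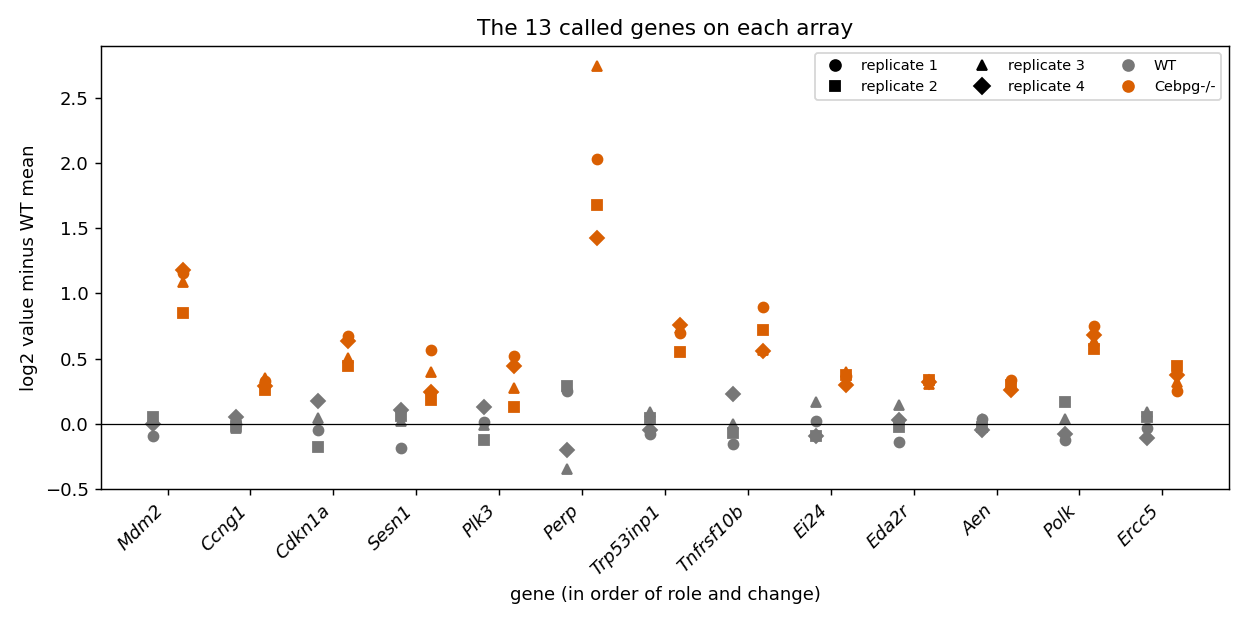
Log2 value minus the gene's WT mean for the 13 genes that rose, on each of the 4 WT (grey) and 4 Cebpg-/- (orange) arrays, with marker shape by replicate number. No Cebpg-/- point reaches a WT point of its gene. Cebpg-/- replicate 2 (squares) is the lowest of the Cebpg-/- arrays for 7 of the 13 and the highest for 2.

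The probe sets of 1 gene gave the same direction where they passed. Of the 13 genes that rose 9 have other probe sets, 15 in all, and 6 of these rose, from 5 genes (Mdm2, Ccng1 with 2, Cdkn1a, Tnfrsf10b and Polk), and none fell. Of the genes that did not pass, Ppm1d and Sesn3 have a probe set that rose.

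Markers of leukocytes were higher in Cebpg-/- beside these genes. All 18 markers measured, among them Ptprc, Csf1r and Lyz2, had changes above 0, with a median of 1.50. Of the 18, 14 had an unadjusted p under 0.05 and Cd14 alone passed (limma, adjusted p = 0.0316), where 8.62% of all genes rose. Their mean was 3.62, 5.39, 5.31 and 5.48 on WT replicates 1 to 4 and 7.57, 4.88, 6.87 and 6.49 on Cebpg-/- replicates 1 to 4. RMA values do not reach 0, and the lowest value of any marker, 1.64, lies under the median probe set of 2.73. Fibroblast markers were high on all arrays, with a mean over 10 of 9.82 to 10.02 in WT and 9.21 to 9.71 in Cebpg-/-. Of the 10, 6 fell, among them Col1a1 and Fap, where 3.99% of all genes fell. The 4 that did not pass were Thy1 (-0.47), Pdgfra (-0.15), Dcn (-0.01) and Vim (0.02). In such bulk cultures fewer cells of a type and less RNA per cell cannot be told apart.

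Cebpg-/- replicate 2 has a leukocyte marker mean within the WT range. It was the lowest of the 4 Cebpg-/- arrays for 7 of the 13 genes that rose, including Mdm2, Cdkn1a and Polk. For 2 of the 13 it was the highest. Cebpg-/- replicate 4, whose marker mean lies above the WT range, was the lowest for 4, and replicates 1 and 3 for 1 each. Whether replicate 2 is the lowest more often among these genes than among all genes was not tested. With the marker mean as a covariate 4 of the 13 passed (Mdm2, Perp, Trp53inp1 and Polk, at 0.92, 1.87, 0.59 and 0.56), where 1.29% of all genes rose. The median gene of the 13 kept 0.862 of its change, and the 9 that no longer passed had adjusted p values from 0.0554 for Ercc5 to 0.432 for Sesn1 (limma). Among them Cdkn1a lay at 0.47 (adjusted p = 0.0653) and Tnfrsf10b at 0.58 (0.0578), while Plk3 shrank to 0.22 and Sesn1 to 0.14. Ercc5, Ei24 and Aen no longer passed though their changes did not shrink. They lay at 0.40, 0.37 and 0.31, beside 0.35, 0.36 and 0.30 without the covariate. Among genes that had not passed, Pmaip1 shrank to 0.16. With both extremes of the marker mean left out (WT replicate 1 and Cebpg-/- replicate 1) 6 of the 13 passed, those 4 with Cdkn1a and Tnfrsf10b, where 1.91% of all genes rose, and Sesn1 lay at 0.21.

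**Figure D4:**
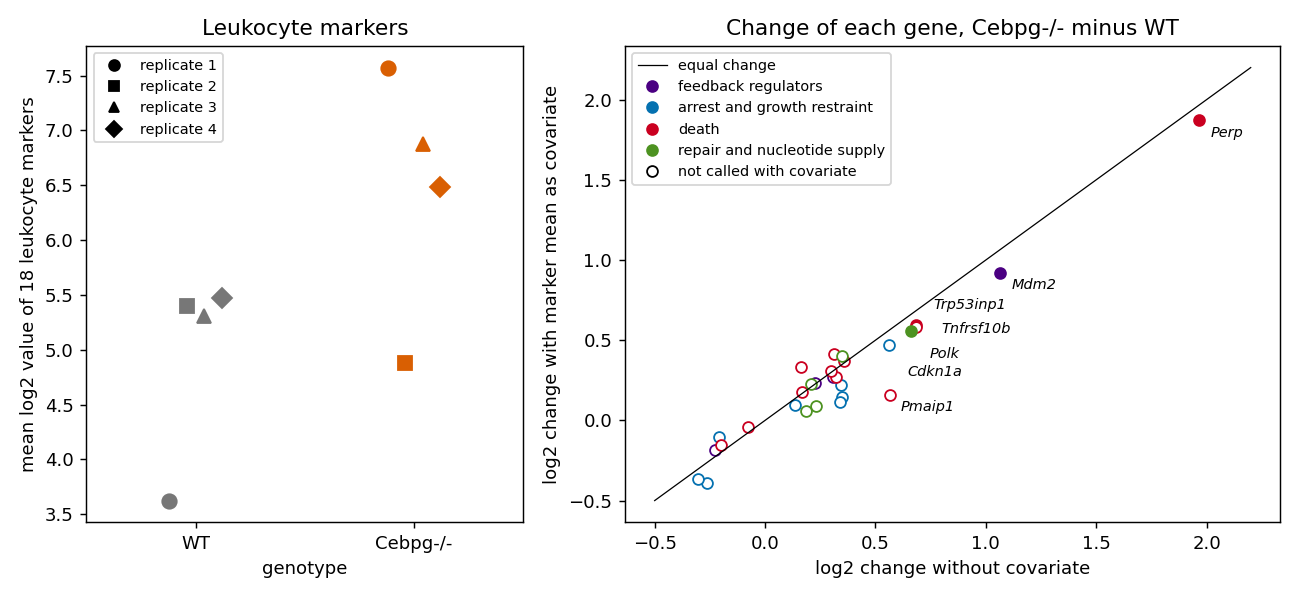
Left, mean log2 value of 18 leukocyte markers on each array, where Cebpg-/- replicate 2 at 4.88 lies among the WT arrays. Right, log2 change of each of the 29 genes without (x axis) and with (y axis) that mean as a covariate. Mdm2 falls from 1.07 to 0.92 and Pmaip1 from 0.57 to 0.16, while Ercc5 lies above the line of equal change.

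Further targets of p53 gave 5 calls. Of 16 measured genes of a second list 4 rose and 1 fell, beside 8.62% and 3.99% of all genes, with a median change of 0.15, and 10 of the 16 had an unadjusted p under 0.05. Those that rose were Bid and Bcl2l11 (BH3-only killers; 0.37 and 0.54), Tigar (a phosphatase that lowers glycolysis; 0.29) and Pml (of the nuclear bodies that recruit p53; 0.28), with limma adjusted p from 0.0248 for Bid to 0.0464 for Pml. Spata18, which clears damaged mitochondria, fell by 0.23 at a level under the median probe set (limma, adjusted p = 0.0307).

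Genes that act on p53 from upstream gave 2 calls. Of 21 measured members 1 rose, the deacetylase gene Sirt1 (0.26; limma, adjusted p = 0.0404), and 1 fell, Hipk2 (-0.35; limma, adjusted p = 0.0131), a kinase that steers p53 towards death genes. These counts are near the shares over all genes, of which 8.62% rose and 3.99% fell. Cdkn2a, which encodes the Mdm2 inhibitor ARF beside p16, had a change of 0.13 (limma, adjusted p = 0.572), and the damage kinase genes Atm and Atr had -0.01 and 0.03. Of the p53 relatives, Trp63 read 1.72 in both groups and Trp73 2.21 and 2.04, levels under the median probe set.

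Genes of the cell cycle that fall where p53 acts through p21 gave no call. Of 19 measured 0 rose and 0 fell (limma with Benjamini-Hochberg adjustment; 5 had an unadjusted p under 0.05), with a median change of -0.08. The lowest p was that of Plk4, a kinase of centriole copying, at -0.39 (limma, adjusted p = 0.0548), followed by Foxm1, a driver of mitotic genes, at -0.27 (0.0647), with all Cebpg-/- values below all WT values. All 5 with an unadjusted p under 0.05 had changes below 0, as did most of the 19. Over all genes 3.99% fell, so a count of 0 called among 19 is near the background, which does not speak of the direction of the changes.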

How the data were processed

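RNA of 4 WT and 4 Cebpg-/- samples was measured on 1 array each. The authors deposited log2 expression values, and the submitters' processing notes name RMA. Which version and settings were used is not stated in what was read here. RMA as a rule corrects background, normalizes across arrays and compresses changes of dim probe sets. No scanner files were used, so no background calls were made. Of 45101 probe sets 64 controls were left out, and 34945 name 1 gene in the platform's table (932 several, 9160 none). Symbols were updated by Entrez number through RefSeq (GRCm38.p6) for 34741. The fit used limma 3.58.1 (R 4.3.3, genotype the only term) over 45037 probe sets, and the p-values of 18193 genes were Benjamini-Hochberg adjusted, with 0.05 as threshold. The fit was tested on simulated data. The genes named are Cebpg, all 29 measured members and, of each further list, up to 4 called genes with the lowest p or, with none called, up to 2 others. Pml, Cdkn2a, Atm, Atr, Cdh1, Dsp, Dsg2, Ptprc, Csf1r, Lyz2, Col1a1, Thy1, Pdgfra, Dcn and Vim fall outside this rule and were named after their values were seen. The members and lists were chosen with earlier results of these data known. Same-numbered replicates did not deviate together (correlations -0.36, 0.15, 0.02 and 0.05), so the numbers were not taken as pairs. The alternatives tried are those of the closing section.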

Additional observations from a re-analysis of the deposited data

How the results depend on the processing

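None of the 29 genes changed sign in the 17 alternatives run. Of the 13 that rose, 11 passed in all 8 fits that leave out 1 array (the others are Plk3 and Sesn1), and Mdm2, Perp, Trp53inp1 and Polk passed in all 17. The count of 13 was 11 to 15 without 1 array, 11 to 14 with another normalization, probe set choice, variance model or weights, 4 with the leukocyte marker covariate and 6 without both leukocyte extremes. The count that fell, 0, was 2 after quantile normalization (Mdm4 and Gadd45a), 1 with dim probe sets left out (Mdm4) and 0 to 2 without 1 array (2 without WT replicate 2, Plk2 and Bbc3). The median change of 0.31 was 0.23 when probe sets of a gene were averaged, 0.23 with the covariate, 0.23 without both extremes, and 0.27 to 0.31 without 1 array. With the replicate block 12 of the 13 passed and Sesn1 did not (adjusted p = 0.106). Over all genes 1569 rose and 726 fell. With the replicate block 978 rose and 491 fell, with the covariate 234 and 111, and without both extremes 347 and 182. Without 1 array 780 to 1690 rose and 395 to 969 fell, with the lowest counts without WT replicate 1 (780 rose) and Cebpg-/- replicate 1 (395 fell). The covariate fit and the fits with fewer arrays have fewer degrees of freedom. No background calls were made, so which genes lie at background is not known.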

Other observations

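The BCL2 family outside the list above gave 1 call among 10 measured genes, beside 8.62% of all genes that rose and 3.99% that fell. Bcl2l1, which encodes the survival protein BCL-XL, read 6.99 in WT and 7.42 in Cebpg-/- on average, a rise of 0.43 (limma, adjusted p = 0.00524). The death genes Bid, Bcl2l11 and Tnfrsf10b and the survival gene Bcl2l1 were thus higher in the same cultures.

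Of 10 measured desmosome genes, partners of Perp in epithelia, 0 rose, where 8.62% of all genes did (limma; 1 had an unadjusted p under 0.05) and 1 fell, Pkp2 (-0.25; limma, adjusted p = 0.0255). Dsp and Dsg2 read 1.53 and 2.33 in WT and 1.45 and 2.26 in Cebpg-/-, under the median probe set of 2.73. Among the small lists of other cell types, endothelial and erythroid markers gave no call (limma, 0 of 5 and 0 of 2, with 0 and 1 at an unadjusted p under 0.05). Of 4 skeletal muscle genes Actc1 alone passed in limma and fell by 0.35. Of 4 neural genes Tubb3 fell by 1.13 and Sox2 rose by 1.10, and both passed in limma. Over all genes 8.62% rose and 3.99% fell. Sox2 read 1.80 in WT, under the median probe set, and 2.91 in Cebpg-/- on average.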
